A study of Rattus norvegicus with 18 samples.

Results

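Classical cadherins and transcription factors of the epithelial-mesenchymal transition (EMT) were followed through chemical carcinogenesis of the rat tongue. The members are 8 genes taken by name, Cdh1, Cdh2 and Cdh3, which encode E-, N- and P-cadherin, and Snai1, Snai2, Twist1, Zeb1 and Zeb2. Every probe set whose symbol in the array annotation is 1 of these was used, a probe set being the group of short array probes that together report 1 transcript. This gave 15 of 31042 probe sets that are not controls, and 7 of 14217 named genes. Snai2 has no probe set under that name in the annotation used and was not analysed here. Where a gene has several probe sets, the one with the highest mean log2 signal stands for it in every count and ranking, and the others are given beside it.

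E-cadherin holds neighbouring epithelial cells together at adherens junctions, where catenins tie it to the actin cytoskeleton. P-cadherin is kept mainly by the basal cells of stratified epithelia such as that of the tongue, and N-cadherin is the classical cadherin of neural, muscle and mesenchymal cells. In EMT, epithelial cells loosen these contacts and take on mesenchymal features. Snail, Slug (Snai2), Twist1 and the zinc finger homeobox proteins Zeb1 and Zeb2 are known for driving it and can repress the E-cadherin gene through E-boxes, but the same factors are normally made by fibroblasts and other mesenchymal cells.

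The study placed male Sprague Dawley rats on drinking water with 0.002% 4-nitroquinoline-1-oxide (4NQO), a carcinogen that damages DNA, and took lesions of the tongue between weeks 14 and 22. Rats on plain distilled water gave the normal samples. From normal tongue, dysplasia and squamous cell carcinoma (SCC), the epithelial layer was peeled off after dispase, and the connective tissue below it was digested with collagenase and plated briefly to keep adherent cells as fibroblasts. The 6 groups are therefore normal epithelia, dysplasia epithelia and SCC epithelia, and normal fibroblasts, dysplasia fibroblasts and SCC fibroblasts, with 3 samples each and 18 arrays in all. Both lesion groups had 4NQO and the normal groups had none, so stage and exposure cannot be told apart. Each sample pooled the tissue of 3 rats, and the labels do not say whether samples of a group came from separate rats, so p-values measure only the spread between these samples, which may be technical. The layers are tissue fractions and not sorted cells, and in such bulk samples fewer cells of a type and less RNA per cell cannot be told apart.

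The 2 layers were not free of each other. The mean log2 signal of 14 epithelial marker genes, keratins and desmosome genes among them and the members left out, was 13.10 to 13.33 in the epithelia and 10.62 to 12.91 in the fibroblasts, with the lowest value in normal fibroblasts 3. The mean of 17 fibroblast markers, collagens among them, was 11.40 to 12.89 in the fibroblasts, 6.42 to 7.84 in the normal epithelia, 6.83 to 7.81 in the dysplasia epithelia and 7.30 to 11.20 in the SCC epithelia. SCC epithelia 2 was the highest of the epithelial samples on this list and SCC epithelia 3 the lowest of its group. In each stage the third fibroblast sample had the lowest epithelial marker mean, so results in fibroblasts are also given without these 3 samples where a call changes. This exclusion was chosen after the data were seen. It leaves samples 1 and 2, whose epithelial marker means were 12.54 and 12.55 in normal, 12.9 and 12.91 in dysplasia and 12.91 and 12.84 in SCC fibroblasts. Samples so alike leave little spread, so adjusted p-values without the third samples are descriptions and not firmer evidence. The third samples also differed in the mean of 18 macrophage markers. It was 11.19, 10.82 and 8.68 in normal fibroblasts 1 to 3. In dysplasia fibroblasts it was 8.48, 8.38 and 10.34, and in SCC fibroblasts 9.8, 9.81 and 11.43. The part of macrophages in the results without the third samples was not tested. Correlation between arrays within a group was 0.961 to 0.995. The signal of the 3′ beta-actin control over its 5′ control was 1.14 to 1.26 on the log2 scale in the SCC fibroblasts and 1.42 to 2.02 in the other groups.

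The layers were compared first, as the check of what the members report. In normal tongue all 7 measured members differed between epithelia and fibroblasts (limma, adjusted p under 0.05), where 63.4% of all probe sets did. By the chosen probe sets Cdh1, Cdh2 and Cdh3 were higher in the epithelia, as were 35.7% of all probe sets. Snai1, Twist1, Zeb1 and Zeb2 were lower there, as were 27.7%. For Cdh2 this direction holds for the chosen probe set only. Its probe sets 1387259_at and 1368642_at were called lower in the epithelia (-1.93 and -2.72, adjusted p = 0.0026 and 0.000375). By the chosen probe sets the widest gap was that of Twist1, with a log2 difference of -7.86 ± 0.68 (SE, epithelia minus fibroblasts, adjusted p = 1.39e-07), or 232-fold lower in the epithelia. Zeb2 was 90.0-fold lower (log2 difference -6.49 ± 0.69, adjusted p = 1.11e-06), Zeb1 was 10.1-fold lower (-3.34 ± 0.27, adjusted p = 6.07e-08) and Snai1 was 4.13-fold lower (-2.05 ± 0.34, adjusted p = 9.21e-05). Other probe sets of these genes were called in the same direction but differed in size. The second Twist1 probe set, 1387750_at, was 4.08-fold lower (-2.03, adjusted p = 0.000382), and the other 4 of Zeb2 were from 2.59-fold lower (1390940_at) to 271-fold lower (1380699_at, -8.08), the last a wider gap than that of Twist1. The largest folds rest on epithelial signals near the low end of the array. Normal epithelia averaged 3.54 for Twist1, 4.29 for the chosen Zeb2 probe set and 2.7 for 1380699_at. Cdh1 was 3.46-fold higher in the epithelia (1.79 ± 0.45, adjusted p = 0.00277). By its dimmer probe set, 1386446_at, whose signals lie at the low end of the array, it was 3.74-fold higher. Cdh3 was 0.85 ± 0.35 higher (adjusted p = 0.0448), a call that was lost in 10 of 18 fits that left out 1 sample each. These were normal epithelia 1 and 3, all dysplasia and SCC epithelia except SCC epithelia 2, normal fibroblasts 3 and SCC fibroblasts 1 and 2, and without normal fibroblasts 3 the difference was 0.40 (adjusted p = 0.266).

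In the lesions 6 members differed between the layers, in dysplasia against 50.4% of all probe sets and in SCC against 38.3%. The member that did not pass was Cdh3, at 0.45 ± 0.35 in dysplasia (95% interval -0.30 to 1.19) and 0.42 ± 0.35 in SCC (-0.32 to 1.17). Cdh2 counts here by its chosen probe set, which was 0.91 higher in dysplasia epithelia and 0.64 higher in SCC epithelia. By contrast 1368642_at was 1.62 lower in dysplasia epithelia (adjusted p = 0.0189), and at -0.87 it did not pass in SCC (0.21). The probe set 1387259_at passed in neither (-0.97 and -0.48, adjusted p = 0.105 and 0.46). Twist1 was 53.2-fold lower in dysplasia epithelia than in dysplasia fibroblasts and 9.59-fold lower in SCC epithelia than in SCC fibroblasts. For Zeb2 the differences were 45.6-fold and 8.21-fold, and those of Zeb1 were -2.58 ± 0.27 and -2.09 ± 0.27 on the log2 scale. Cdh1 was 1.27 ± 0.45 higher in dysplasia epithelia (adjusted p = 0.0284) and 1.19 ± 0.45 higher in SCC epithelia (adjusted p = 0.0477). Both Cdh1 calls were weak. In dysplasia the call was lost without any 1 of the dysplasia epithelia or without dysplasia fibroblasts 3 (adjusted p up to 0.102). In SCC it was lost in 14 of 18 fits (adjusted p up to 0.178) and held only without 1 of the normal fibroblasts or without dysplasia fibroblasts 3. The dimmer Cdh1 probe set was 1.34 higher in dysplasia and 1.41 higher in SCC (adjusted p = 0.00522 and 0.00541), and both calls held with any 1 sample left out. With a mean log2 signal of 2.59 over the 18 samples it lies at the low end of the array, which limits these differences. The second Twist1 probe set was 2.94-fold and 2.38-fold lower in the lesion epithelia, and its SCC call (adjusted p = 0.0213) was lost without SCC epithelia 1 or 3 or SCC fibroblasts 3 (up to 0.124). The other Zeb2 probe sets were 1.52-fold to 101-fold lower in dysplasia, where spike-in alignment turned the smallest gap, that of 1390940_at, to 0.77 on the log2 scale, and 2.07-fold to 21.6-fold lower in SCC.

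**Figure D1:**
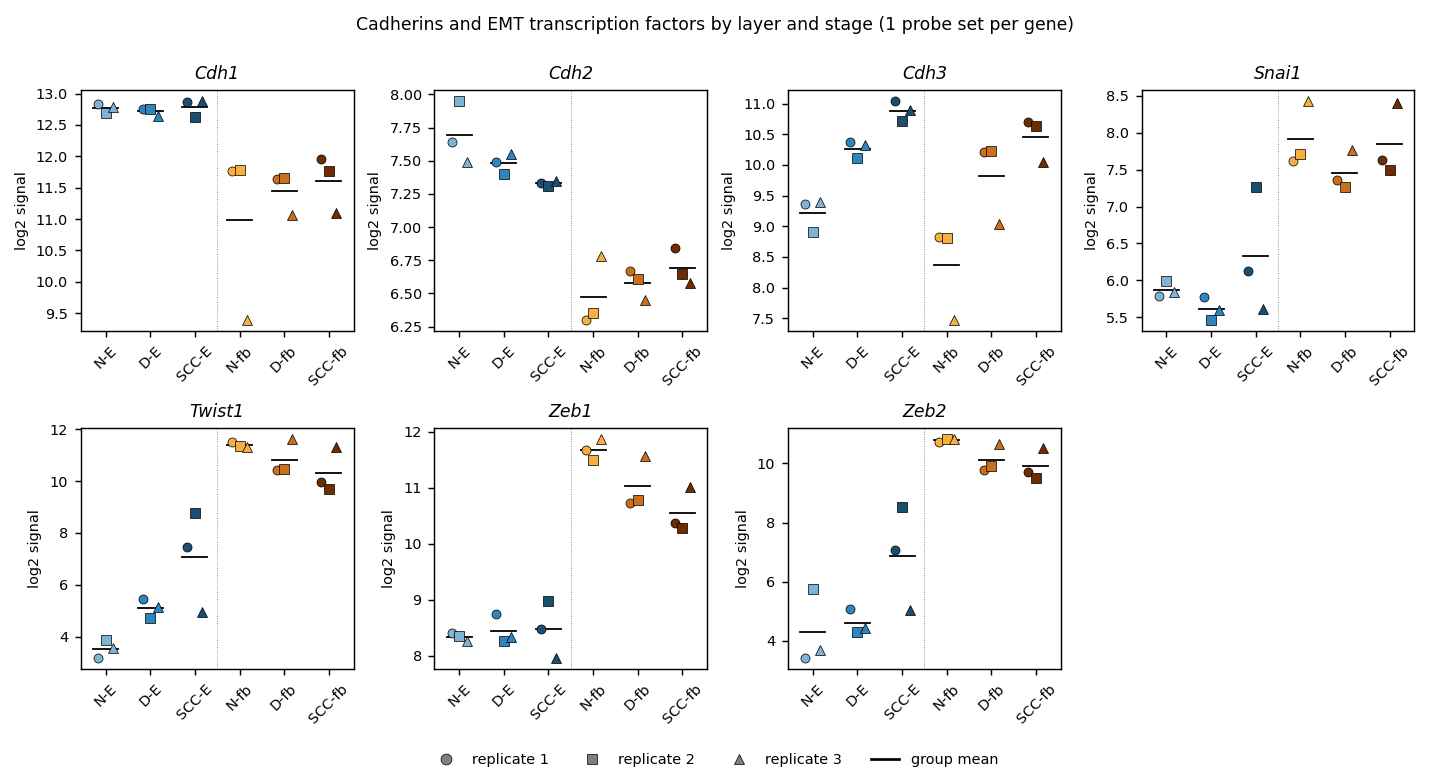
Log2 signal of the 7 measured members (y axis, 1 panel per gene) in the 6 groups: N-E, D-E and SCC-E are normal, dysplasia and SCC epithelia, and N-fb, D-fb and SCC-fb are the fibroblasts. Circles, squares and triangles are samples 1, 2 and 3, and black bars are group means. Cdh1 stayed between 12.63 and 12.88 in all 9 epithelial samples, Cdh3 climbed from 8.91 to 9.39 in normal epithelia to 10.72 to 11.04 in SCC epithelia, and Twist1 and Zeb2 spread widely in the SCC epithelia.

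For E-cadherin mRNA no change with stage was detected in the epithelia. Cdh1 (probe set 1386947_at) read 12.83, 12.69 and 12.79 log2 in normal epithelia 1 to 3, 12.76, 12.76 and 12.65 in dysplasia epithelia and 12.86, 12.63 and 12.88 in SCC epithelia. All 9 values lie within a narrow band and the groups overlap. Between normal and SCC the change was 0.02 ± 0.11 (95% interval -0.22 to 0.27, adjusted p = 0.888), and from normal to dysplasia it was -0.05 ± 0.11 (-0.30 to 0.20, adjusted p = 0.802). The lower ends of these intervals are the largest falls they hold. With 1 sample left out at a time, the normal to SCC value lay between -0.02 and 0.10. A dimmer probe set of the gene, 1386446_at, had group means of 3.65, 3.16 and 3.29 in the normal, dysplasia and SCC epithelia, at the low end of the array.

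The fibroblast samples carried Cdh1 signal too. It read 11.77, 11.78 and 9.39 in normal fibroblasts, 11.64, 11.66 and 11.06 in dysplasia fibroblasts and 11.96, 11.76 and 11.09 in SCC fibroblasts. The third sample was the lowest in each stage, as it was for the epithelial marker mean, and the stages overlap. The change from normal to SCC was 0.62 ± 0.58 (95% interval -0.69 to 1.93, adjusted p = 0.484). Cdh1 minus the epithelial marker mean was -0.77, -0.77 and -1.23 in normal fibroblasts 1 to 3. It was -1.26, -1.25 and -1.18 in dysplasia and -0.96, -1.09 and -0.98 in SCC fibroblasts, so Cdh1 did not follow these markers evenly. The genes with the signal most like that of Cdh1 over the 18 samples were the desmosome genes Dsp and Perp (Pearson r = 0.988 and 0.987) and Lypd3 (0.985), of 9235 genes with a mean log2 signal above 7. These samples share 2 layers, 3 stages and the epithelial content of each fraction, so the likeness is a description only.

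P-cadherin mRNA rose with stage in the epithelia. Cdh3 (1373089_at) read 9.36, 8.91 and 9.39 in normal epithelia, 10.37, 10.11 and 10.32 in dysplasia epithelia and 11.04, 10.72 and 10.89 in SCC epithelia. Every dysplasia sample is above every normal one and below every SCC one. Groups without overlap were found for 40.4% of all probe sets from normal to dysplasia and for 18.3% from dysplasia to SCC. From normal to dysplasia it was the 1 member of 7 called, where 14.5% of all probe sets were called, with a rise of 1.05 ± 0.16 (95% interval 0.69 to 1.41, adjusted p = 0.00535) or 2.07-fold. The rise to SCC was 3.17-fold (1.67 ± 0.16, interval 1.31 to 2.02, adjusted p = 0.00028). The step from dysplasia to SCC was 0.62 ± 0.16 (0.26 to 0.98) with an adjusted p of 0.178, in a comparison where 0.0258% of probe sets were called. The normal to SCC call held with any sample left out (adjusted p up to 0.00183), and so did the normal to dysplasia call (up to 0.0303), which was lost in a fit of all 18 samples (0.0619) and with the ordinary t-test (0.0502).

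The fibroblast samples showed a rise of Cdh3 of similar size. It read 8.83, 8.81 and 7.47 in normal fibroblasts, 10.21, 10.22 and 9.03 in dysplasia fibroblasts and 10.70, 10.64 and 10.04 in SCC fibroblasts. All lesion samples are above all normal ones, the dysplasia and SCC samples overlap, and the third sample is the lowest of each stage. Dysplasia did not overlap with normal fibroblasts in 23.5% of all probe sets, and SCC did not in 38.4%. The rise from normal to SCC was 4.26-fold (2.09 ± 0.43, 95% interval 1.11 to 3.07, adjusted p = 0.0179). It was no longer called without SCC fibroblasts 1 (adjusted p = 0.0757) or 2 (0.0753), and without the third sample of every stage the rise was 1.85 (0.000188). From normal to dysplasia the difference was 1.45 ± 0.43 (adjusted p = 0.168), and without the third samples it was 1.40 (0.000944). With the sample number as a block it was called as well (0.0164). Correlations of equal and of unlike numbers overlap between normal and dysplasia fibroblasts, so a pairing by number is not shown. The difference between the layers in the normal to SCC change was -0.42 ± 0.49 (interval -1.48 to 0.63, adjusted p = 0.593), so a layer-specific change in Cdh3 was not detected at this number of arrays.

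Since Cdh1 and the epithelial markers are carried by both fractions, Cdh3 was also set against Cdh1 on the same array. The difference was chosen after the values were seen and is a description without a test. Cdh3 minus Cdh1 was -3.78 to -3.40 in normal epithelia, -2.65 to -2.33 in dysplasia epithelia and -1.99 to -1.82 in SCC epithelia. In fibroblasts it was -2.94, -2.97 and -1.92 in normal samples 1 to 3, -1.43, -1.44 and -2.03 in dysplasia, and -1.26, -1.11 and -1.04 in SCC. The SCC values are thus above the normal ones in both layers, and the dysplasia values are above the normal ones except in dysplasia fibroblasts 3. Cdh3 minus the mean of the 14 epithelial markers averaged -4.03, -3.03 and -2.30 in normal, dysplasia and SCC epithelia, and -3.53, -2.87 and -2.15 in the fibroblasts. By these group means the signals of P-cadherin and of the epithelial genes changed unequally in both layers. The part of epithelial cells in the rise of Cdh3 in the fibroblast samples was not tested. In the rat genome (RefSeq, GRCr8) Cdh3 and Cdh1 are neighbours on chromosome 19.

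**Figure D2:**
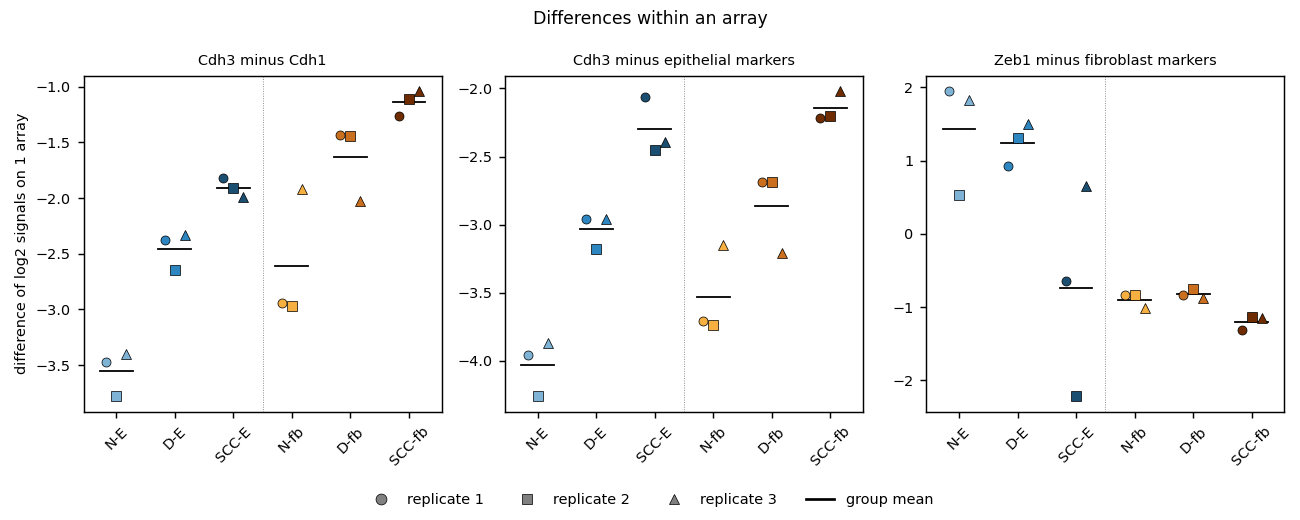
Differences between log2 signals on the same array (y axis) in the 6 groups: Cdh3 minus Cdh1, Cdh3 minus the mean of 14 epithelial markers, and Zeb1 minus the mean of 17 fibroblast markers. Points are samples and bars are group means. Cdh3 minus Cdh1 goes from -3.78 to -3.40 in normal epithelia to -1.99 to -1.82 in SCC epithelia. Among the fibroblast groups, Zeb1 minus the fibroblast markers is lowest at SCC (-1.32 to -1.13). In the epithelia it is 0.53 to 1.95 in normal and -2.22 to 0.66 in SCC.

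N-cadherin gave different answers by probe set. The brightest, 1378271_at, read 7.64, 7.95 and 7.49 in normal epithelia, 7.49, 7.40 and 7.55 in dysplasia epithelia and 7.33, 7.31 and 7.35 in SCC epithelia. SCC samples are the lowest, with no overlap with normal, as in 47.5% of all probe sets. The difference of -0.36 ± 0.13 did not pass (95% interval -0.66 to -0.07, adjusted p = 0.0624). The probe set 1387259_at read 5.07, 5.08 and 5.25 in normal epithelia, 5.52, 5.19 and 5.67 in dysplasia epithelia and 6.95, 8.06 and 6.01 in SCC epithelia. It rose by 1.87 ± 0.42 from normal to SCC (adjusted p = 0.0107), a call that held with any 1 sample left out, with 1.34 without SCC epithelia 2. The third probe set, 1368642_at, rose by 1.79 ± 0.50 (adjusted p = 0.0259), a call lost without normal epithelia 1 or 3 (adjusted p up to 0.0748). In both of these, SCC epithelia 2 is the highest of the group and SCC epithelia 3 the lowest, the order in which the fibroblast, macrophage and endothelial markers stand in these samples, whose part in the result was not tested.

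Between the layers the N-cadherin probe sets also went opposite ways. In normal tongue 1378271_at was 1.21 ± 0.14 higher in the epithelia (adjusted p = 3.37e-06), whereas 1387259_at was 1.93 ± 0.48 lower there (adjusted p = 0.0026) and 1368642_at was 2.72 ± 0.53 lower (adjusted p = 0.000375). In normal fibroblasts 1387259_at read 6.42, 6.50 and 8.30, and 1368642_at read 6.59, 6.78 and 8.40. Sample 3, with the least epithelial signal, is the highest in both. Over the 18 samples 1378271_at correlated at -0.57 and -0.72 with the others. The probe set chosen by brightness therefore does not carry the pattern of the other two, and Cdh2 is not counted as changed below. In fibroblasts the normal to SCC differences of 1378271_at, 1387259_at and 1368642_at were 0.21, 0.41 and -0.06, and none passed. Without the third sample of every stage they were 0.42 (adjusted p = 0.0262), 0.81 (0.00294) and 0.22 (0.347).

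**Figure D3:**
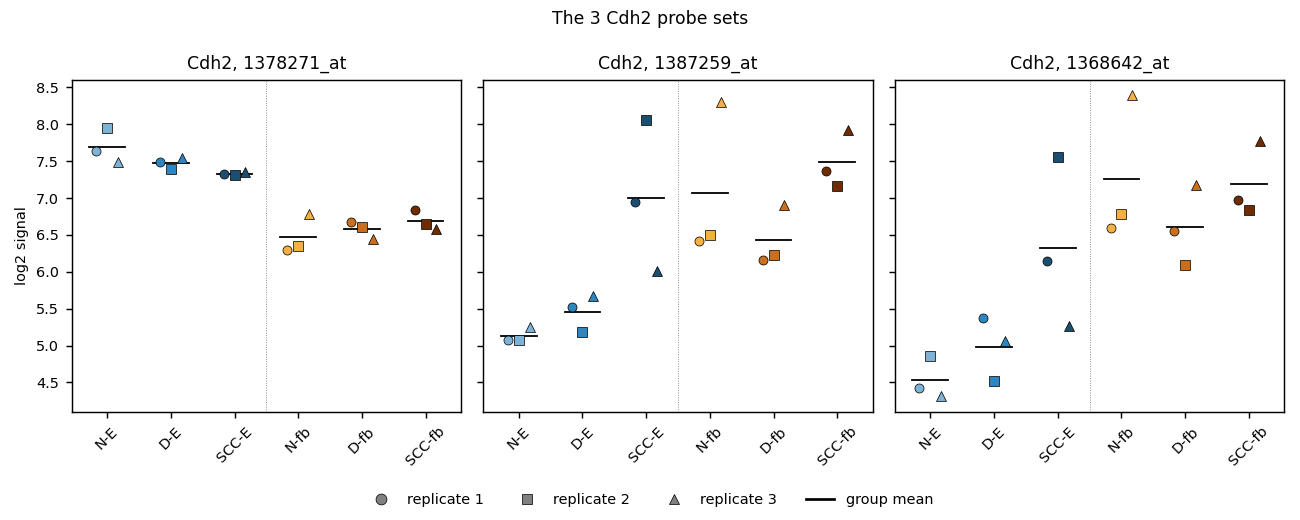
Log2 signal (shared y axis) of the 3 Cdh2 probe sets in the 6 groups, with points as samples and bars as group means. From normal to SCC epithelia 1378271_at goes from 7.49 to 7.95 down to 7.31 to 7.35, while 1387259_at goes from 5.07 to 5.25 up to 6.01 to 8.06.

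The EMT factors are shown next with the sequence before their start, since Twist1 and Zeb2 moved together in the epithelia and since E-boxes are where these factors bind. Each line gives the 250 bases before the gene start, read along the gene's own strand (RefSeq, GRCr8), with every match to CAGGTG or its reverse complement CACCTG in capitals.
Snai1, chr3:176667226-176667475 (plus strand): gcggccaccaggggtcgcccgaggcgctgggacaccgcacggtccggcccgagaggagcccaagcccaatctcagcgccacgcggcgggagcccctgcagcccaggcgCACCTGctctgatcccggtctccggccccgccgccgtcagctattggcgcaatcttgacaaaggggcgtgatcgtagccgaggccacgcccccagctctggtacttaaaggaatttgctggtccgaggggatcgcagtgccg
Twist1, chr6:56402059-56402308 (plus strand): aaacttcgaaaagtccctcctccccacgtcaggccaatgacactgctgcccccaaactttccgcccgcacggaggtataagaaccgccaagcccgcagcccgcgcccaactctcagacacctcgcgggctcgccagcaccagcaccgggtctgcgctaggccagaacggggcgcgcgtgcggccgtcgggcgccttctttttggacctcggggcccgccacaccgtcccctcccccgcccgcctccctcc
Zeb1, chr17:56810654-56810903 (minus strand): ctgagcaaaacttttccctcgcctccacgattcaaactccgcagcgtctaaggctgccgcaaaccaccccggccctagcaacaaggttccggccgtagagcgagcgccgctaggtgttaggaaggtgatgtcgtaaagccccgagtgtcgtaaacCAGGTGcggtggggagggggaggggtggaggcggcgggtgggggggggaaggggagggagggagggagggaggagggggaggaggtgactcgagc
Zeb2, chr3:49754324-49754573 (minus strand): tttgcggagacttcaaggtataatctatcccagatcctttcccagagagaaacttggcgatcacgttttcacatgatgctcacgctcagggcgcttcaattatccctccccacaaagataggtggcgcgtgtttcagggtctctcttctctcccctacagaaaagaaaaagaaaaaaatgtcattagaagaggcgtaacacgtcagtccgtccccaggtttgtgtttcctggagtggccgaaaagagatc
The table used holds promoters of these 4 of the 8 members. Snai1 has 1 match, whose leftmost base lies at position -142 from the start, and Zeb1 has 1 at position -95, while Twist1 and Zeb2 have none in this window. Of 33469 promoters of the same length, 15.9% hold CAGGTG or CACCTG, searched on both strands, and 65.5% hold the looser CANNTG, which includes both. Zeb2 has 1 match to CANNTG and Twist1 has 0. The GC content was 69.6% for Snai1, 69.2% for Twist1, 65.2% for Zeb1 and 47.6% for Zeb2, against a median of 51.2%. A match of letters is a description and not a bound site.

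Twist1, a basic helix-loop-helix factor of mesoderm and of mesenchymal cells, had the widest stage change of the members in the epithelia. Its probe set 1378165_at read 3.17, 3.88 and 3.56 in normal epithelia, 5.43, 4.71 and 5.15 in dysplasia epithelia and 7.46, 8.78 and 4.96 in SCC epithelia. Every SCC and dysplasia sample is above every normal one, where normal and SCC did not overlap in 47.5% of all probe sets. SCC epithelia 3 lies within the dysplasia range. Between normal and SCC it rose by 3.53 ± 0.78 (95% interval 1.77 to 5.29, adjusted p = 0.0101), or 11.6-fold, from signals near the low end of the array. The call held with any 1 sample left out (adjusted p up to 0.037), while the size ranged from 2.67 without SCC epithelia 2 to 4.58 without SCC epithelia 3. From normal to dysplasia the difference was 1.56 ± 0.78 (-0.20 to 3.32, adjusted p = 0.209). Its groups do not overlap there, as in 40.4% of all probe sets. The second probe set, 1387750_at, read 5.26 to 5.74 in normal epithelia and 5.34 to 5.95 in SCC epithelia, a difference of 0.16 (adjusted p = 0.593).

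Zeb2 stood beside it. The probe set 1382252_at read 3.42, 5.77 and 3.68 in normal epithelia, 5.07, 4.30 and 4.42 in dysplasia epithelia and 7.06, 8.53 and 5.03 in SCC epithelia. Normal epithelia 2 is above SCC epithelia 3, so the groups overlap, and normal epithelia 1 and 3 are near the low end of the array. The rise from normal to SCC was 2.58 ± 0.86 (95% interval 0.64 to 4.52, adjusted p = 0.0499), or 5.98-fold. This call is at the threshold and was lost without normal epithelia 1 or 3, any of the dysplasia epithelia, or SCC epithelia 1 or 2 (adjusted p up to 0.146). The second brightest probe set, 1380699_at, rose by 3.40 ± 0.89 (adjusted p = 0.0207), a call lost without normal epithelia 1 or 3 or SCC epithelia 1 (up to 0.0671). It read 2.15, 3.79 and 2.18 in normal epithelia, near the low end of the array, which limits the size of this rise. The other probe sets differed by 0.73 (1395130_at), 0.57 (1393795_at) and -0.02 (1390940_at) and did not pass. Together with Cdh3 and Twist1, Zeb2 makes 3 of 7 members called from normal to SCC in the epithelia, where 29.9% of all probe sets were called.

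Zeb1 and Snai1 were not called in the epithelia at any step. Zeb1 (1370965_at) read 8.41, 8.36 and 8.26 in normal epithelia, 8.74, 8.26 and 8.33 in dysplasia epithelia and 8.48, 8.98 and 7.96 in SCC epithelia. Its groups overlap, and the normal to SCC change was 0.13 ± 0.24 (95% interval -0.41 to 0.67, adjusted p = 0.701). Snai1 (1373219_at), a zinc finger repressor, read 5.79, 5.99 and 5.84 in normal epithelia, 5.77, 5.46 and 5.59 in dysplasia epithelia and 6.12, 7.27 and 5.61 in SCC epithelia. SCC epithelia 2 stands above the other samples, and the change was 0.46 ± 0.35 (-0.32 to 1.24, adjusted p = 0.34). From dysplasia to SCC limma called 0 of 7 members, against 0.0258% of all probe sets. The 3 members Cdh3, Twist1 and Zeb2 had an unadjusted p under 0.05, as did 14.2% of all probe sets, and the ordinary t-test called 0. Twist1 differed there by 1.97 ± 0.78 (adjusted p = 0.309), and without SCC epithelia 3 by 3.02 (0.0135).

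Markers of other cell types moved with Twist1 and Zeb2 in the SCC epithelia. The mean of the 17 fibroblast markers was 9.11, 11.20 and 7.30 in SCC epithelia 1 to 3, that of 18 macrophage markers was 8.30, 9.30 and 7.01, and that of 13 endothelial markers was 7.40, 8.77 and 6.27. In each list sample 2 is the highest and sample 3 the lowest, as for Twist1, Zeb2, Zeb1 and Snai1. In SCC against normal epithelia, where 34.9% of all genes were called, 3 of 17 fibroblast, 12 of 18 macrophage and 3 of 13 endothelial markers rose and none fell, with median changes of 2.39, 2.37 and 1.43. Within the arrays, Zeb2 minus the fibroblast marker mean was -3.03 to -2.07 in normal epithelia and -2.67 to -2.06 in SCC epithelia, so these ranges overlap. Twist1 minus that mean was -3.96 to -2.87 in normal epithelia, -2.37 to -1.68 in dysplasia epithelia and -2.42 to -1.66 in SCC epithelia, with no overlap between normal and the lesions. The normal values rest on Twist1 signals of 3.17 to 3.88, near the low end of the array, which limits this difference. Its second probe set, 1387750_at, changed by 0.16 from normal to SCC epithelia. The part of fibroblasts, macrophages and endothelial cells in the rise of Twist1 and Zeb2 was not tested.

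**Figure D4:**
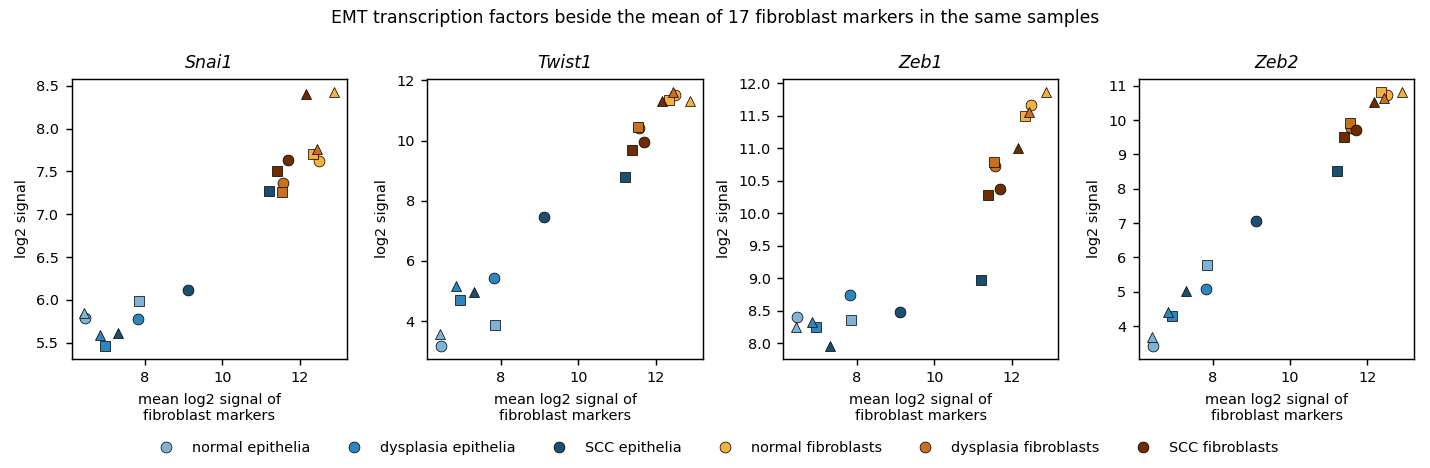
Log2 signal of Snai1, Twist1, Zeb1 and Zeb2 (y axis) against the mean log2 signal of 17 fibroblast markers (x axis) in the 18 samples, with colours for the groups and circles, squares and triangles for samples 1, 2 and 3. The 9 fibroblast samples sit at 11.40 to 12.89 on the x axis, and SCC epithelia 2, at 11.20, lies nearest to them.

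In the fibroblasts Zeb1 was the 1 factor of 4 called from normal to SCC, and it was lower in SCC. Zeb1 read 11.67, 11.50 and 11.87 in normal fibroblasts, 10.73, 10.79 and 11.56 in dysplasia fibroblasts and 10.38, 10.28 and 11.01 in SCC fibroblasts. SCC samples are all below normal ones, where 38.4% of all probe sets did not overlap, and sample 3 is the highest of each stage. At SCC Zeb1 fell by 1.12 on the log2 scale (SE 0.27, 95% interval -1.72 to -0.52, adjusted p = 0.0271), a 2.18-fold difference. The call was lost without normal fibroblasts 1 (adjusted p = 0.072), 2 (0.0606) or 3 (0.0599) or SCC fibroblasts 1 (0.104) or 2 (0.107). With the arrays aligned on spiked-in control transcripts, which moved the median of all probe sets by 0.71, it was -0.41 (0.347). Without the third sample of every stage it was -1.26 (0.00067).

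Twist1 and Zeb2 had lower means in SCC fibroblasts, and neither difference passed. Twist1 read 11.52, 11.36 and 11.31 in normal fibroblasts, 10.42, 10.45 and 11.62 in dysplasia fibroblasts and 9.96, 9.70 and 11.32 in SCC fibroblasts. Samples 1 and 2 of both lesion groups lie below all normal samples and sample 3 does not. The normal to SCC difference of Twist1 was -1.07 ± 0.44 (95% interval -2.06 to -0.07, adjusted p = 0.125), and without SCC fibroblasts 3 it was -1.57 (0.0182). Without the third sample of every stage it was -1.61 (0.000494). The second Twist1 probe set differed by -0.62 (0.391), and by -0.78 without these samples (0.00264). Zeb2 read 10.72, 10.82 and 10.81 in normal, 9.77, 9.91 and 10.65 in dysplasia and 9.71, 9.50 and 10.52 in SCC fibroblasts. Its lesion samples did not overlap with normal, as in 23.5% of all probe sets for dysplasia and 38.4% for SCC. Its normal to SCC difference was -0.87 ± 0.30 (-1.54 to -0.21, adjusted p = 0.0742), which passed without SCC fibroblasts 3 (-1.18, 0.0167) or dysplasia fibroblasts 3 (-0.87, 0.0437). It also passed without the third sample of every stage (-1.17, 0.00102) and with the sample number as a block (0.0257), although a pairing by number is not shown for normal and SCC fibroblasts. The other Zeb2 probe sets did not pass, with -0.29 for 1380699_at (adjusted p = 0.453), 0.25 for 1395130_at (0.604), -0.39 for 1393795_at and -0.35 for 1390940_at, so 1 of the 5 had the opposite sign. Without the third samples 1380699_at passed at -0.41 (0.0265) and the other three did not. Snai1 read 7.62, 7.71 and 8.43 in normal, 7.36, 7.26 and 7.76 in dysplasia and 7.63, 7.50 and 8.40 in SCC fibroblasts, and its normal to SCC difference was -0.08 (adjusted p = 0.875).

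Thus 2 of 7 members were called from normal to SCC in fibroblasts, Cdh3 up and Zeb1 down, where 15.2% of all probe sets were called. From normal to dysplasia limma called 0 members against 0.171% of all probe sets. The 3 members Cdh3, Zeb1 and Zeb2 had an unadjusted p under 0.05, as did 5600 of all 31042 probe sets, and the ordinary t-test called 0. The differences were -0.65 for Zeb1, -0.67 for Zeb2 and -0.57 for Twist1, and by the other probe sets -0.98 to -0.50 for Zeb2 and -0.39 for Twist1, none of them called. Without the third sample of every stage the chosen probe sets gave -0.82 (adjusted p = 0.00542), -0.93 (0.00492) and -1.01 (0.0045). From dysplasia to SCC limma called 0 members against 1.85% of probe sets, and 0 members had an unadjusted p under 0.05, where 17.4% of probe sets did, and the ordinary t-test called 0. Without the third samples Cdh3 (0.45, adjusted p = 0.0281), Twist1 (-0.60, 0.0285) and Zeb1 (-0.43, 0.0496) passed at that step. Of the 17 fibroblast markers 4 fell from normal to SCC fibroblasts and none rose (median -0.90), where 16.2% of all genes were called. On the same array Zeb1 minus their mean was -1.02 to -0.84 in normal, -0.87 to -0.75 in dysplasia and -1.32 to -1.13 in SCC fibroblasts. Neutrophil markers rose in 7 of 8 cases (median 2.66), and the part of either marker list in the fall of Zeb1 was not tested.

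**Figure D5:**
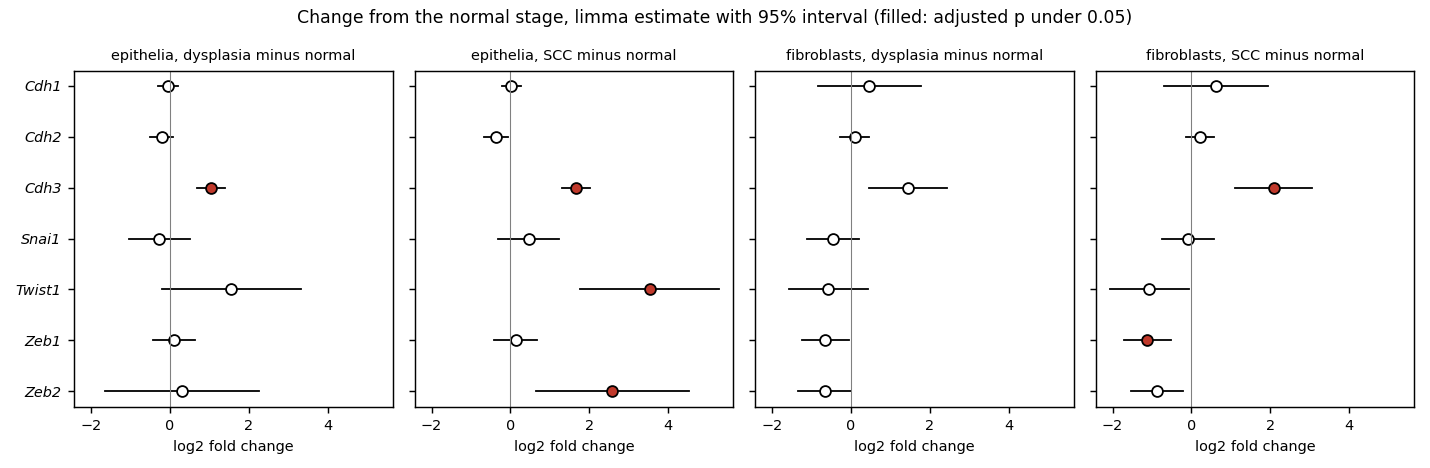
Log2 change of each member from normal to dysplasia and from normal to SCC (axis in log2 units), for epithelia and for fibroblasts, as the limma estimate with its 95% interval. Filled points have an adjusted p under 0.05: Cdh3 (1.05) in dysplasia epithelia, Cdh3 (1.67), Twist1 (3.53) and Zeb2 (2.58) in SCC epithelia, and Cdh3 (2.09) and Zeb1 (-1.12) in SCC fibroblasts.

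The normal to SCC change differed between the layers for 3 of 7 members, Twist1, Zeb1 and Zeb2, where 16.5% of all probe sets differed. The change in epithelia minus the change in fibroblasts was 4.60 ± 0.96 for Twist1 (95% interval 2.55 to 6.65, adjusted p = 0.00551), 3.45 ± 0.98 for Zeb2 (1.37 to 5.54, 0.0266) and 1.25 ± 0.38 for Zeb1 (0.45 to 2.05, 0.0346). The Twist1 call held with any 1 sample left out (adjusted p up to 0.0187). That of Zeb2 was lost without normal epithelia 1 (0.0664) or 3 (0.0647), SCC epithelia 2 (0.0559) or SCC fibroblasts 1 (0.0606) or 2 (0.0677). That of Zeb1 was lost without any of the normal epithelia, SCC epithelia 1 or 2, normal fibroblasts 1 or 3 or SCC fibroblasts 1 or 2 (up to 0.0924), and with spike-in alignment it was 0.68 (0.238). By other probe sets the difference was 0.78 for Twist1 (1387750_at, adjusted p = 0.365) and 3.68 for Zeb2 (1380699_at, 0.0212), the latter lost without normal epithelia 1 or 3 (up to 0.0527). The remaining Zeb2 probe sets gave 0.48 (1395130_at), 0.96 (1393795_at) and 0.33 (1390940_at) and did not pass. For Snai1 the difference was 0.54 ± 0.48 (adjusted p = 0.477) and for Cdh1 -0.60 ± 0.64 (0.555). For the normal to dysplasia change limma called 0 members (4.13% of all probe sets) and Twist1 alone had an unadjusted p under 0.05 (21.2%). The dimmest Zeb2 probe set, 1390940_at, passed there at 0.77 (adjusted p = 0.0426), a call lost in 12 of 18 fits that left out 1 sample. For the dysplasia to SCC change it called 0 (0.651%), and Twist1 and Zeb2 had an unadjusted p under 0.05 (12.9%).

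Genes that work with the cadherins at the junction changed in part. In the epithelia from normal to SCC 1 of 14 catenins and partners rose and 2 fell, where 34.9% of all genes were called. Nectin3, an adhesion protein of adherens junctions, rose by 2.19 (adjusted p = 0.000992). In normal tongue it was lower in the epithelia than in the fibroblasts (-4.35, adjusted p = 3.95e-07), and the part of fibroblasts in its rise was not tested. Afdn, which links nectins to actin, fell by 0.57 (0.0124), and Ctnnd1, the p120 catenin that stabilises cadherins at the membrane, fell by 0.31 (0.0397). The Ctnnd1 call was lost without any of the normal epithelia, dysplasia epithelia 3 or SCC epithelia 2 or 3 (adjusted p up to 0.122). The median of the list was -0.12, against -0.03 over all genes. In fibroblasts limma called 0 of these 14 genes from normal to SCC.

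Among 24 epithelial junction genes that EMT factors are known to hold down, 9 fell and 3 rose from normal to SCC epithelia, where 34.9% of all genes were called, with a median of -0.23. The tight junction gene Cldn3 fell by 2.31 (adjusted p = 0.000319) and Ocln, which encodes occludin, by 1.36 (0.000786). Krt8, a keratin of simple epithelia, rose by 1.97 (0.00785), and Prss8, a membrane-anchored protease, fell by 1.35 (0.00257). From normal to dysplasia 6 of the 24 already were lower and 0 higher, where 17.5% of genes were called, with Cldn3 down by 1.27 (0.00932). The SCC calls of Cldn3, Ocln, Krt8 and Prss8 and the dysplasia call of Cldn3 held with any 1 sample left out. The other 5 dysplasia calls, of Ocln, Pard6b, Tjp1, Prss8 and Cldn1, were all lost without dysplasia epithelia 3, Tjp1 also without normal epithelia 1, Prss8 also without normal epithelia 1 or 3 or dysplasia epithelia 1, and Cldn1 also without normal epithelia 1 or 2 or dysplasia epithelia 1 (adjusted p up to 0.0857). In SCC fibroblasts 4 of the 24 were higher than in normal fibroblasts and 0 lower, where 16.2% of genes were called. The largest was Krt8 at 3.26 (0.0166), lost without SCC fibroblasts 2 (0.0549). Dsc2, Lsr and Pard6b, the other three, were lost without SCC fibroblasts 1 or 2, and Lsr and Pard6b also without normal fibroblasts 1 or 2 (up to 0.102).

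Of 29 mesenchymal genes, 9 rose and none fell from normal to SCC epithelia, with a median of 2.48. That is a share called near the 34.9% of all genes. Postn, a matrix protein, rose by 6.10 (adjusted p = 0.00546), and Thy1, a surface marker of fibroblasts, by 3.44 (0.0103). Lum rose by 5.48 (0.0279) and Lox, which cross-links collagen, by 4.91 (0.0284). The Lum call was lost without normal epithelia 1 or 3 or SCC epithelia 1 or 2 (up to 0.0916), and the Lox call without any of the normal epithelia or SCC epithelia 1 (up to 0.0785). Of these 29 genes 12 are also on the list of 17 fibroblast markers, so the lists are not separate measurements. In SCC fibroblasts 3 fell against normal fibroblasts and 0 rose, where 16.2% of genes were called, with a median of -0.57. These were Fap (-1.67), Fn1 (-0.89) and Ncam1 (-0.47), all lost without any of the normal fibroblasts, dysplasia fibroblasts 1 or SCC fibroblasts 1 or 2, and Fn1 and Ncam1 also without dysplasia fibroblasts 2 (up to 0.172). The difference between the layers in the normal to SCC change was positive for 10 of the 29 and negative for 0, where 18.6% of genes were called.

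TGF-beta, the best known inducer of EMT, had 6 of 14 genes up and 2 down from normal to SCC epithelia, with a median of 0.36. The counts of this and the next lists stand against 34.9% of all genes called. The ligand Tgfb3 rose by 1.68 (adjusted p = 0.000435) and Ltbp1, which holds latent TGF-beta in the matrix, by 1.07 (0.00176), and both calls held with any 1 sample left out. The ligand Tgfb2 rose by 1.18 (0.0398) and Ltbp2 by 0.90 (0.0394). In normal tongue Tgfb2, Tgfb3 and Ltbp1 were called lower in the epithelia than in the fibroblasts, by log2 differences of -4.27, -3.49 and -3.19. The part of fibroblasts in their rise was not tested. The Tgfb2 call was lost without any of the normal or dysplasia epithelia (up to 0.11), and the Ltbp2 call without any of the normal epithelia, dysplasia epithelia 2 or SCC epithelia 1 or 2 (up to 0.0954). Among 11 transcription and splicing factors that guard the epithelial state, 2 rose and 5 fell, with a median of -0.28. Grhl1, a grainyhead factor, fell by 0.68 (0.00318) and held with any 1 sample left out, whereas the calls of the other 6 were each lost without at least 3 of the 9 epithelial samples (adjusted p up to 0.121). Of 21 other EMT regulators 3 rose and 1 fell (median 0.10), and Kdm1a, a histone demethylase that binds Snail, rose by 0.45 (0.0153) and held as well. Loxl2 (1.56), Tcf3 (0.46) and Hdac1 (-0.33) were lost without any of the normal epithelia, among other samples (up to 0.105). In fibroblasts from normal to SCC limma called 0 of the 14 TGF-beta genes and 0 of the 21 regulators, where it called 16.2% of all genes.

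The genes most like each factor over the 18 samples, by Pearson correlation of log2 signal among 9235 or 9236 genes with a mean log2 signal above 7, were largely genes of the fibroblast fraction. These values describe samples that share layers and stages. Twist1 was closest to F2r and S100a4 (both 0.994) and, after the mean of each layer was taken out, to S100a4 (0.972). Zeb2 was closest to Tgm2, Fstl1 and Fbn1 (0.995 each), and within layers to Bgn (0.979) and Fn1 (0.976). Zeb1 was closest to Adcy6 (0.995), and within layers to Acvr1 (0.958). Snai1 was closest to Lmo2 (0.988) and Col8a1 (0.987), and within layers to Col8a1 (0.971). Cdh3 was closest to Shmt2, a mitochondrial enzyme of serine metabolism, both as measured (0.968) and within layers (0.970).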

How the data were processed

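The 18 samples (6 groups of 3, grouped by their titles) were each hybridised to 1 Affymetrix rat array. The intensity values were summarized and normalized by the authors before they were deposited; per the submitters' processing notes Affymetrix Expression Console and RMA were used, with versions not given in the sources used here. They were deposited on a linear scale and were taken to log2 as they stand. Without a detection call, dim probe sets were kept, and 3 arrays per group limit the precision. Of 31099 probe sets 57 controls were left out. Of the 31042 tested, 20826 name 1 gene, 436 several and 9780 none, and none of the member genes lies on a probe set with several genes. No value column was left unmapped.

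Stages were compared with limma 3.58.1 (R 4.3.3) over the 9 arrays of a layer. Layers, and differences of a change between layers, were fitted over all 18. Adjusted p-values are Benjamini-Hochberg over all probe sets and a call is an adjusted p under 0.05. All tests are two-sided, ± is the SE of the estimate, and the ordinary t-test was adjusted in the same way. The fold and detection thresholds of the study's methods were not used. The scripts were tested on simulated data. All members are named. Of other lists, with 1 probe set per gene, up to 4 called genes of largest change are named by rule; the text keeps to those that matter and prefers calls that held with samples left out (decided once values were known). The members and gene lists were chosen with earlier results of these data known.

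Pairing by sample number was checked as the correlation of deviations from group means. Equal numbers of dysplasia and SCC fibroblasts gave 0.321 to 0.592 over all probe sets. Every pair was above 0.1, and they were taken as paired by this rule, not by the labels. Unlike numbers gave -0.527 to 0.352, which overlaps, so the rule does not show that equal numbers share rats. Over all probe sets the other stage pairs did not reach 0.1 in every pair. Over the 14424 with a mean log2 signal above 7 the other fibroblast pairs did, at 0.122 to 0.321 (normal and dysplasia) and 0.18 to 0.362 (normal and SCC), and the epithelia did not. Unlike numbers reached 0.27 and 0.246 in these fibroblast comparisons. Dysplasia and SCC fibroblasts gave 0.584 to 0.703 over these probe sets, where unlike numbers reached 0.572. Alternatives were quantile normalization, spike-in alignment (18 control probe sets), median centring, a mean log2 signal above 7, an offset of 16 before the log2, 1 fit of 18 samples, the 2 groups only, the replicate block, trend and robust estimation, array weights, 1 probe set per gene, the ordinary t-test, a fold of 2 with unadjusted p, and each sample left out. Leaving out the third fibroblast sample of every stage was added after seeing the data.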

Additional observations from a re-analysis of the deposited data

Results flagged for a closer look

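The normal to SCC change differed between epithelia and fibroblasts for 3 members, by a test of the difference itself. The difference (epithelia minus fibroblasts) was 4.60 for Twist1, from a rise of 3.53 in epithelia and a change of -1.07 in fibroblasts that did not pass. The second Twist1 probe set gave 0.78 and did not pass (adjusted p = 0.365). It was 3.45 for the chosen Zeb2 probe set (2.58 and -0.87) and 3.68 for 1380699_at, while the other three, at 0.48, 0.96 and 0.33, did not pass. The difference was 1.25 for Zeb1 (0.13 and -1.12). Of all probe sets 16.5% differed in this way. In the epithelia the mean of 17 fibroblast markers rose as Twist1 and Zeb2 did, from 6.42 to 7.84 in normal to 7.30 to 11.20 in SCC, while Zeb1 changed by 0.13. The layer difference of these markers had a median of 3.42, and 5 of 17 were called higher, where 18.6% of all genes were called. The part of fibroblasts in the differences of the 3 members was not tested.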

How the results depend on the processing

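Of the results per gene, 5494 kept their direction and their side of the threshold under an alternative, 116 came to pass it, 516 no longer passed it and 3 turned. Members called moved by over 1.5 times as follows. In epithelia from normal to dysplasia the 1 called became 0 in 1 fit of 18 samples and with the ordinary t-test, and 2 with the 2 groups only and with array weights. From dysplasia to SCC 0 became 2 with a fold of 2, and from normal to SCC 3 became 1 with the t-test. In fibroblasts from normal to dysplasia 0 became 1 in 1 fit of 18 samples, with the replicate block and with a fold of 2, and 4 with array weights and without the third samples, an alternative chosen after seeing the data. From dysplasia to SCC 0 became 3 with spike-in alignment and without the third samples, and 1 with array weights. From normal to SCC 2 became 5 with array weights and without the third samples, and 0 with the t-test. Between the layers in SCC 6 became 2 with the t-test. The layer difference from normal to dysplasia went from 0 to 2 with array weights and 1 with a fold of 2, and from dysplasia to SCC from 0 to 1 with spike-in alignment and 2 with array weights and with a fold of 2. Smaller moves reached 5 in place of 7 between the normal layers, 5 in place of 6 between the dysplasia layers, 5 or 7 in place of 6 between the SCC layers, 2 or 4 in place of 3 in epithelia from normal to SCC, and 4 in place of 3 for the layer difference from normal to SCC. Array weights did not converge fully in 3 fits.

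With 1 sample left out, members called ranged in epithelia from 1 to 2 (normal to dysplasia), 0 to 1 (dysplasia to SCC) and 2 to 3 (normal to SCC), and in fibroblasts they were 0 at both single steps and 0 to 4 from normal to SCC. Between the layers they ranged from 6 to 7, 5 to 6 and 5 to 6 in normal, dysplasia and SCC, and for the layer differences from 0 to 0, 0 to 1 and 1 to 3. Spike-in alignment turned Ncam1 in fibroblasts to 0.13 (dysplasia to SCC) and 0.23 (normal to SCC), from -0.70 and -0.47, and Zeb2 1390940_at between the dysplasia layers to 0.77 from -0.61. It moved the median of all probe sets by 0.83 and 0.71 in the fibroblast comparisons with SCC. Between the normal, dysplasia and SCC layers the median moved by 1, 1.38 and 0.42. For the layer differences it moved by 0.38 from normal to dysplasia, -0.95 from dysplasia to SCC and -0.57 from normal to SCC. The replicate block brought fibroblast Cdh3 from normal to dysplasia to an adjusted p of 0.0164 and Zeb2 from normal to SCC to 0.0257, with 1449 probe sets called from normal to dysplasia against 53, and it changed no other call of the members' chosen probe sets. Dysplasia and SCC fibroblasts, taken as paired by number, gave 0 members called with and without it. Probe sets called ranged with 1 sample left out from 1416 to 5043 (main 4516) in epithelia from normal to dysplasia and from 936 to 6796 (main 4733) in fibroblasts from normal to SCC. The cause of these changes was not tested.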

Other observations

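Of 12 other cadherins measured, 5 were lower and 2 higher in normal epithelia than in normal fibroblasts, where 66.6% of all genes were called, and 1 rose and 2 fell from normal to SCC epithelia (34.9%). Cdh13, the T-cadherin anchored to the membrane without a cytoplasmic tail, rose by 1.34 from normal to SCC epithelia (adjusted p = 0.00304). Cdh16 fell by 0.92 (0.00483) and Cdh17 by 0.69 (0.0113), and all 3 calls held with any 1 sample left out. In fibroblasts Cdh22 fell by 2.97 from normal to SCC (0.00882), a call that also held (up to 0.0453), and Cdh10 fell by 0.72 (0.0158), a call lost without normal fibroblasts 2 or SCC fibroblasts 1 or 2 (up to 0.0719). In normal tongue Cdh22 was 7.44 lower in the epithelia (6.19e-08) and Cdh11, the cadherin of osteoblasts and fibroblasts, 5.55 lower (1.97e-05). Cdh13 was 3.56 lower there (3.35e-09) and Cdh15, the cadherin of skeletal muscle, 2.06 lower (0.000111). The mean of the fibroblast markers was 6.9 in normal and 9.2 in SCC epithelia, and the part of fibroblasts in the rise of Cdh13 was not tested.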
